A study of Mus musculus with 8 samples.

Results

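The 26S proteasome is the ATP-dependent protease that destroys ubiquitin-tagged proteins, and most of its subunits are encoded by genes named Psma to Psmd. Genes named Psme or Psmf include activators and an inhibitor. These genes were followed here through every gene-spot probe whose name starts with Psma, Psmb, Psmc, Psmd, Psme or Psmf. The immunoproteasome genes Psmb8, Psmb9 and Psmb10 and pseudogenes were left out. This rule found 59 probes for 43 genes, among 60273 probes that carried 47242 gene names. The rule used names only and no measured value. It took in 2 genes that share only the name: Psmc3ip, a meiotic recombination factor, and Psme3ip1, a protein that binds the activator PA28γ. It also took in 3 assembly chaperones named Psmd, which are not subunits. Of the reference genes that the rule names, 1, Psme2b, was not found on the probes.

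The core particle is a barrel of alpha rings, which gate the entry, around beta rings, which hold the proteases. The regulatory particle caps the barrel, where its ATPases unfold the substrate and its other subunits bind ubiquitin chains and remove them. Proteasomes are needed in every cell, and in macrophages and other immune cells they also produce the peptides shown on MHC class I, for which the constitutive proteases can be exchanged for immunoproteasome subunits.

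The RNA came from donor-derived cells in mouse brain tissue after an induced stroke. Bone marrow carrying the red fluorescent protein DsRed was transplanted into wild-type mice, from donors that were wild-type (labelled Psgl1+/+) or lacked Selplg (labelled Psgl1-/-), the gene of the leukocyte adhesion protein PSGL-1. All chimeras had an occlusion of the middle cerebral artery for 30 min with reperfusion, and donor-derived cells were sorted on day 7 as live DsRed+ CD11b+ CD45hi cells without Ly6G or CD3. In both groups only the transplanted cells carried the genotype, and the hosts kept wild-type cells. There were 4 wild-type samples (replicates 1 to 4) and 4 knockout samples (replicates 5 to 8), each on 1 single-colour array. The labels give neither the age of the mice nor the number of animals behind a sample, and p-values thus reflect the spread among these 8 samples, part of which may be technical.

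Values are log2 signals after each array was scaled to its 75th percentile, and a difference is knockout minus wild-type on that log2 scale. Each gene was read from its brightest probe. For a test, this probe had to be well above background on 4 or more of the 8 arrays. Between 76.1% and 88.2% of gene spots were well above background per array. The unscaled 75th percentile was 525.8 to 748.6 on wild-type and 833.3 to 958.8 on knockout arrays. The Selplg probe gave 13.81 ± 1.36 in wild-type and 13.18 ± 0.24 in knockout arrays (SD, n = 4 each; difference -0.63, SE 0.64, limma adjusted p = 0.684). The labels do not say what the knockout allele deletes, so this probe does not check them. All 10 monocyte and macrophage markers were well above background on all 8 arrays, as were all 8 microglial and all 7 neuronal markers. So were 7 of 8 neutrophil and 6 of 7 T cell markers, although Ly6G and CD3 had been gated out. The other marker lists ranged from 4 of 6 (astrocyte) to 7 of 7 (dendritic cell). By the same rule 34977 of the 47242 gene names were well above background on all 8 arrays. Such counts therefore do not show which cells were present. RNA levels of a sorted population cannot tell fewer cells of a type from less RNA per cell.

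The sequences of 3 probes are shown because the results for Psmb5 and Psmd1 turn on them. The probe of Psmb5, the chymotrypsin-like protease, has 47 bases and was the only one that reads this gene. Psmd1, a large scaffold subunit of the regulatory particle, was read by a probe of its RefSeq mRNA (50 bases) and by a probe of another transcript (53 bases) that the files place at chr1:87964118-87964177 of mm9.
Psmb5, NM_011186.1: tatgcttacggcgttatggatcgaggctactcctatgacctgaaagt
Psmd1, NM_027357.2: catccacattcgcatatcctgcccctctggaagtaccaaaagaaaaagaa
Psmd1, ENSMUST00000189234: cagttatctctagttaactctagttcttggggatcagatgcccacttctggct

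Of the 43 genes, 42 were tested. Psmb5 was not, since its probe was well above background on 3 of 8 arrays. No member passed the adjusted threshold (limma, Benjamini-Hochberg over all 42432 tested genes; lowest adjusted p = 0.458), where 0.00236% of all tested genes did. At an unadjusted p under 0.05, 4 members were higher in the knockout arrays (Psmd2, Psmd6, Psmf1 and Psmb6), against 1.62% of all tested genes. Lower were 2 members (Psmd1 and Psme3), against 9.2% of all genes. The groups did not overlap for 2 members in the higher direction (Psmd2 and Psmf1; 0.648% of all genes) and for 1 in the lower (Psme3; 10.7% of all genes). The count of 4 became 2 without wild-type replicate 2, knockout replicate 5 or knockout replicate 6 (1.5%, 1.82% and 1.97% of all tested genes). It became 7 without wild-type replicate 3 (1.89%). The count of 2 became 1 without wild-type replicate 2 or 4 (8.15% and 6.04%) or knockout replicate 7 or 8 (4.76% and 4.73%). Psma8, Psmd10 and Psmf1 were well above background on 2 wild-type and 4 knockout arrays, and Psma5 was on 1 and 3. Psmb5 was left out, so these counts do not speak for all 43 genes. With the filter at all 8 arrays, 3 of 37 members were higher (1.44% of all tested genes) and 2 lower (10.5%).

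The differences were positive for 28 and negative for 14 of the 42 tested members, which is 66.7% positive, beside 31% of all tested genes. Their median was 0.58, beside -0.33 over all genes, a gap of 0.91. Leaving out the 2 genes that share only the name gave 27 positive and 13 negative differences with a median of 0.63. Psma5, Psmd10 and Psmf1, all positive, reached the filter through the knockout group, as did Psma8 with a negative difference. With the filter at all 8 arrays, 24 of 37 members were positive (64.9%, beside 29.6% of all genes). Their median was then 0.42, beside -0.33 over all genes. Other scalings moved the median of all genes to -0.17 (quantile normalization) or -0.01 (cyclic loess), and with cyclic loess 76.2% of members and 49.2% of all genes were positive. Many probes of the array read transcripts other than RefSeq mRNAs. With probes of RefSeq mRNAs alone, a choice made after seeing the data, 18755 genes had a median of -0.27 with 37% positive, and the members a median of 0.63 with 69% positive.

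The median signal of the tested members on each array varied between arrays of the same label. In wild-type replicates 1 to 4 it was 10.08, 10.10, 11.37 and 9.63, and in knockout replicates 5 to 8 it was 10.41, 10.13, 11.93 and 11.95. Knockout replicates 7 and 8 were the highest and wild-type replicate 3 came next, while knockout replicates 5 and 6 lay close to wild-type replicates 1 and 2, so the groups overlapped. The median of all tested genes stayed between 7.68 and 8.04. Without knockout replicates 7 and 8 together, the median difference of the members was 0.10, with 22 positive and 20 negative (52.4% positive). These arrays had the highest members' medians, so leaving them out tends to lower the difference by construction. Over all tested genes the median was then -0.26, with 35.1% positive. Leaving out single arrays gave 0.29 when knockout replicate 7 was dropped, 0.33 when wild-type replicate 2 was, and 0.93 when knockout replicate 5 was. In slide row 1 (wild-type replicates 2 and 4, knockout replicates 6 and 8) the members' median was 1.09, beside -0.40 over all tested genes. In slide row 2 it was 0.12, beside -0.29. Of the 6 members with an unadjusted p under 0.05, all kept their sign in both rows. They were picked by p on these same arrays, so the kept signs are no separate support. Psmb6 was at 2.89 in row 1 and 0.62 in row 2, and Psmd1 at -3.48 and -0.98. Each slide column held arrays of 1 group, and the effects of column and genotype cannot be told apart.

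**Figure D1:**
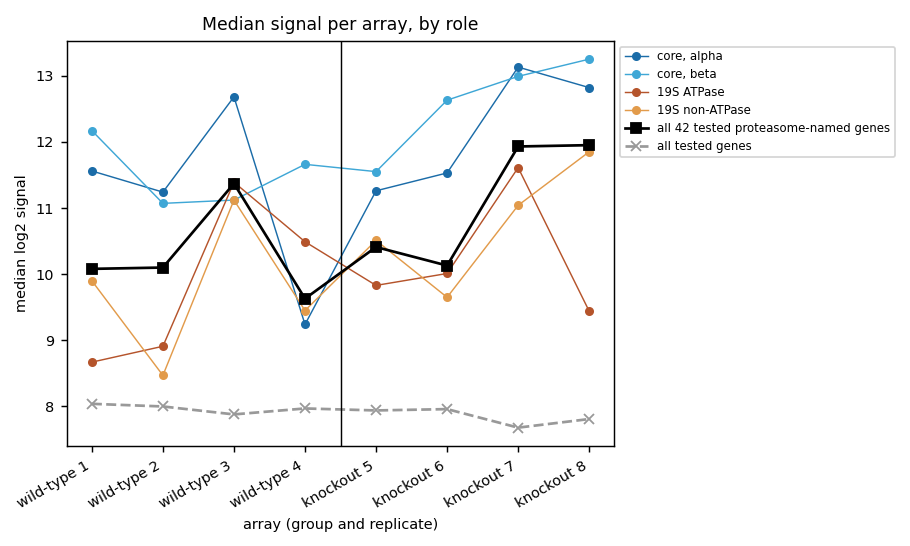
Median log2 signal (vertical axis) on each of the 8 arrays (horizontal axis) for 4 role lists, for the 42 tested members (black squares) and for all tested genes (grey crosses); levels of different lists rest on different probes, so each line is to be read along the arrays. The black line is highest on knockout replicates 7 and 8 (11.93 and 11.95) and next highest on wild-type replicate 3 (11.37), while the grey line stays between 7.68 and 8.04.

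The members varied widely between arrays of the same group. The median SD of a member was 1.38 in wild-type and 1.23 in knockout arrays, beside 0.62 and 0.64 over all tested genes and 0.74 and 0.79 over genes read by RefSeq mRNA probes. In 19 of 42 members at least 1 group spanned more than 4 log2 units, which is over 16-fold between arrays with the same label, and in 9 members both groups did. Such spans were not counted over all tested genes. Some of them, as for Psma5, Psmd10 and Psmd11, include arrays where the probe was not well above background, so their fold is uncertain. The steadiest was Psmc3ip in wild-type arrays, with an SD of 0.07. The widest was Psmd11, a scaffold subunit of the regulatory particle lid, at 12.84, 8.13, 11.62 and 3.19 in the wild-type samples, against 1.93, 12.60, 12.65 and 12.55 in the knockout samples. It was thus far below the others on 1 array of each label. Its probe was well above background on only 3 wild-type and 3 knockout arrays. Wild-type replicate 3 was the highest of the 8 arrays for 13 members and wild-type replicate 4 the lowest for 9. The array most often highest and the array most often lowest were thus both wild-type, while knockout replicates 7 and 8 were the highest for 8 and 6 members. The same counts over all tested genes were not made. The heat map of deviations shows this patchwork.

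**Figure D2:**
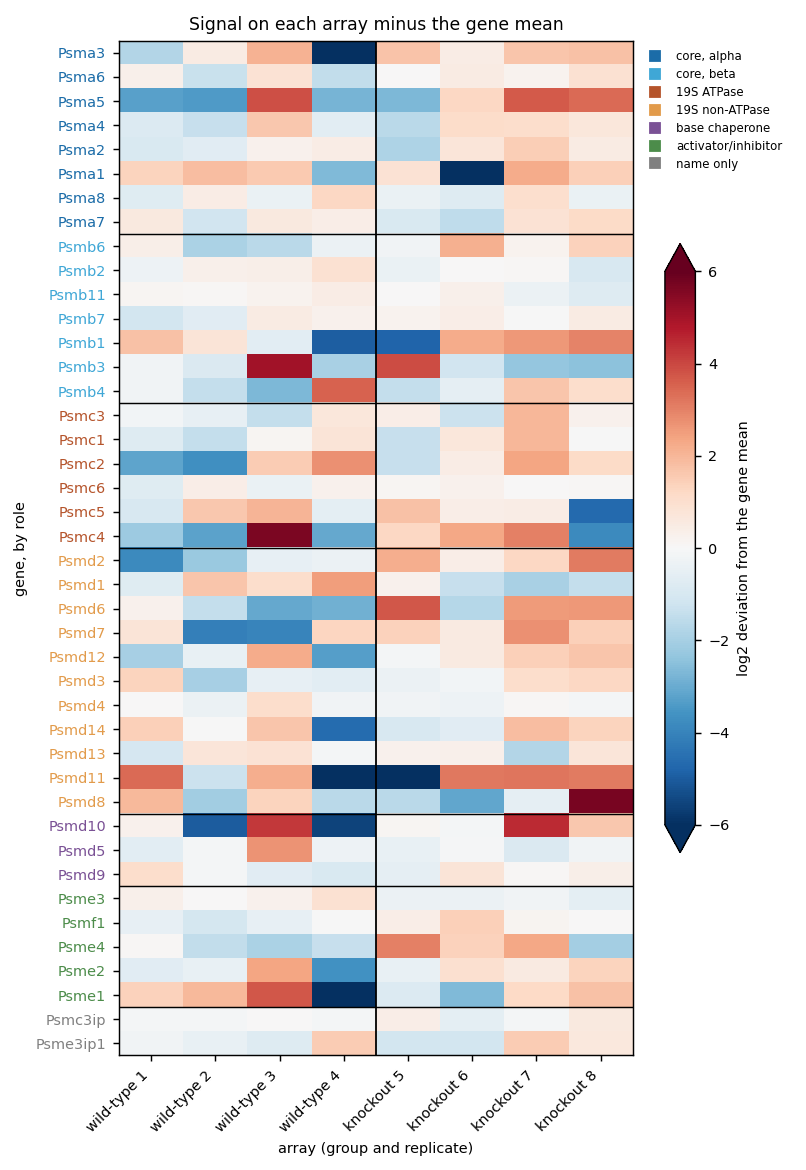
Log2 signal of the 42 tested members (rows, grouped by role and coloured by it) on each array (columns), as the deviation from the mean of that gene over 8 arrays; red is higher, blue lower, and deviations beyond 6 take the end colour. Wild-type replicate 3 is the highest array for 13 genes and wild-type replicate 4 the lowest for 9, and single dark cells such as Psmd11 on knockout replicate 5 (1.93) mark arrays far from others of the same label.

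The alpha ring genes had 5 positive and 3 negative differences among 8, with a median of 0.53, and none had an unadjusted p under 0.05. Psma3, one of its subunits, had the smallest p of them. Its signal was 9.79, 12.02, 13.62 and 5.17 in the wild-type samples, against 13.26, 11.98, 13.23 and 13.32 in the knockout samples. The knockout arrays were high and close together, and the wild-type arrays spread over 8.45 log2 units and overlapped them (difference 2.80, SE 1.66, adjusted p = 0.504). A second Psma3 probe, of another transcript, gave -0.33 (SE 0.71). Psma5 had the same difference of 2.80 (SE 2.03), yet wild-type replicate 3 read 10.39, like knockout replicates 7 and 8 at 10.20 and 9.92, and the other wild-type arrays 3.13 to 3.74. The remaining alpha subunits differed by 0.82 (Psma6), 0.63 (Psma4), 0.42 (Psma2), -0.22 (Psma7) and -1.07 (Psma1). Psma8, the testis form of an alpha subunit, differed by -0.28 and was well above background on 6 of 8 arrays.

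The beta ring carries the proteases. Psmb6, the caspase-like protease, read 12.21, 9.97, 10.25 and 11.50 in the wild-type samples, against 11.64, 14.00, 12.05 and 13.25 in the knockout samples. The means were 10.98 ± 1.06 and 12.74 ± 1.08 (SD, n = 4 each), a difference of 1.76 (SE 0.70, adjusted p = 0.458 by limma). Only wild-type replicate 1 reached into the range of the knockout arrays.

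Psmb7, the trypsin-like protease, read 13.03, 13.47, 14.66 and 14.39 against 14.34, 14.56, 14.11 and 14.65, wild-type before knockout. The groups overlapped and differed by 0.53 (SE 0.41, adjusted p = 0.583 by limma), and a second probe gave 1.30 (SE 1.30). Psmb5 read 2.21, 3.39, 4.83 and 1.72 in the wild-type samples, against 3.79, 2.79, 8.98 and 6.92 in the knockout samples. Its probe was well above background on 1 wild-type and 2 knockout arrays, and knockout replicates 7 and 8 were the highest. No difference is given for Psmb5. The 3 proteases thus had positive or untested differences, and none passed the adjusted threshold.

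Psmb2, a non-catalytic beta subunit, read 10.43, 11.07, 11.12 and 11.66 in the wild-type samples, against 10.35, 10.77, 10.84 and 9.81 in the knockout samples. The groups overlapped (difference -0.63, SE 0.36, adjusted p = 0.498 by limma). This value came from a probe of another transcript at chr4:126362768-126362827 of mm9, and the RefSeq mRNA probe gave -1.17 (SE 1.46). Psmb11, the catalytic beta subunit of thymic cortical epithelium, read 14.37, 14.34, 14.49 and 14.72 against 14.30, 14.56, 13.90 and 13.48. Knockout replicates 7 and 8 were the lowest of the 8 arrays and the groups overlapped (difference -0.42, SE 0.30, adjusted p = 0.559 by limma). Psmb1 (1.51, SE 2.11), Psmb3 (-0.99, SE 1.93) and Psmb4 (0.38, SE 1.36), which are structural subunits, each varied by more than 4 log2 units in the wild-type group. Of the 7 tested beta genes, 4 had positive and 3 negative differences, with a median of 0.38.

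The immunoproteasome proteases, which replace the constitutive ones, are not members. Psmb8 differed by 0.32 (SE 0.62), Psmb9 by 0.34 (SE 1.27) and Psmb10 by 0.76 (SE 1.02), with adjusted p-values of 0.839, 0.921 and 0.762 (limma), and their groups overlapped. The comparison of the exchange between both sets was not tested.

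The ATPases, which form the ring that unfolds substrates, had 5 positive and 1 negative difference among 6, with a median of 0.66, and none had an unadjusted p under 0.05. Psmc3 had the smallest p of them. It read 11.22, 10.89, 9.91 and 12.05 in the wild-type samples, against 11.78, 10.06, 13.35 and 11.63 in the knockout samples, with overlap (difference 0.69, SE 0.74, adjusted p = 0.7 by limma). Psmc6 was the steadiest ATPase, between 8.82 and 9.96 on all 8 arrays, with a difference of 0.25 whose interval of 95% ran from -0.48 to 0.98. Psmc4 was at 5.44, 4.41, 13.26 and 4.54 on the wild-type arrays, where replicate 3 stood apart, and at 8.83, 9.94, 10.61 and 3.76 on the knockout arrays. Psmc1 was read by probes that share 32 bases and gave 0.64 and 1.20, so they are not independent readings. Psmc2 differed by 1.29 (SE 1.61) and Psmc5 by -1.03 (SE 1.44).

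The non-ATPase subunits, which form the scaffold, the ubiquitin receptors and the lid, held the largest differences in both directions. Among 11 genes 8 were positive and 3 negative, with a median of 0.87. Psmd2, which encodes the Rpn1 scaffold where shuttle factors dock, read 6.01, 7.61, 9.31 and 9.45 in the wild-type samples, against 11.99, 10.20, 11.04 and 12.93 in the knockout samples. Every knockout array lay above every wild-type array (8.10 ± 1.62 against 11.54 ± 1.18, SD, n = 4 each; difference 3.45, SE 0.91, unadjusted p = 0.00576, adjusted p = 0.458 by limma). It was the smallest unadjusted p of any member.

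Psmd6, a lid subunit, read 8.22, 6.53, 4.87 and 5.08 in the wild-type samples, against 11.67, 6.25, 10.51 and 10.58 in the knockout samples. Knockout replicate 6 lay within the wild-type range and the other knockout arrays above it (difference 3.57, SE 1.28, adjusted p = 0.458 by limma). Psmd7, the lid partner of the deubiquitinase, differed by 3.02 (SE 1.37) and by 0.95 (SE 1.85) in a second probe. Psmd12, another lid subunit, differed by 1.76 (SE 1.13), and Psmd14, the deubiquitinase that cuts off the ubiquitin chain, by 0.78 (SE 1.45). Psmd4, a ubiquitin receptor, stayed between 13.28 and 14.66 on all 8 arrays and differed by -0.27 (SE 0.35), while its second probe gave -0.66 (SE 0.36). The remaining subunits differed by 0.99 (Psmd11), 0.87 (Psmd3), 0.21 (Psmd8) and -0.26 (Psmd13).

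Psmd1 encodes Rpn2, the other large scaffold beside Rpn1. Its brighter probe, the one of the non-RefSeq transcript shown above, read 8.57, 10.99, 10.37 and 11.81 in the wild-type samples, against 9.59, 7.96, 7.38 and 7.89 in the knockout samples. Only wild-type replicate 1 lay within the knockout range (difference -2.23, SE 0.77, adjusted p = 0.458 by limma). Its RefSeq mRNA probe read 7.37, 7.48, 7.55 and 7.40 against 9.77, 6.65, 10.64 and 12.58, a difference of 2.46 (SE 1.11). There the wild-type arrays spanned only 0.18 log2 units and 3 of 4 knockout arrays lay above them. The direction for Psmd1 therefore differs between its probes.

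**Figure D3:**
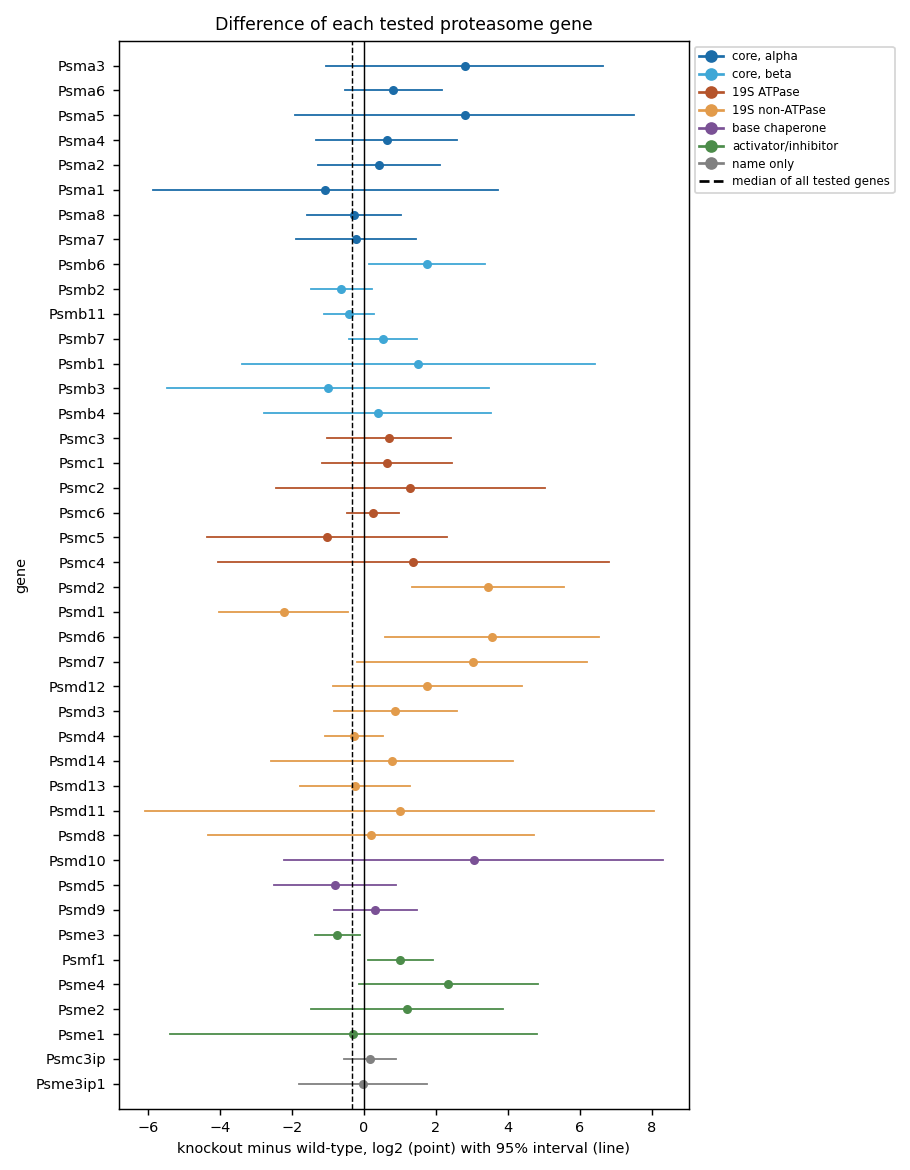
Difference between knockout and wild-type arrays on the log2 scale for each tested member (points) with its 95% interval from limma, not adjusted for the number of genes (lines), coloured by role; the solid line marks 0 and the dashed line the median of all tested genes (-0.33). The intervals of 6 genes leave out 0 (Psmd2, Psmd6, Psmf1 and Psmb6 above, Psmd1 and Psme3 below), and most of the others span several log2 units.

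The 3 members named Psmd that are chaperones of base assembly and not subunits had differences of 3.05 (Psmd10, SE 2.26), 0.32 (Psmd9, SE 0.50) and -0.80 (Psmd5, SE 0.73). Psmd10, also known as gankyrin, read 8.45, 3.22, 12.43 and 2.64 in the wild-type samples, against 8.32, 8.08, 12.70 and 9.83 in the knockout samples. It was well above background on 2 wild-type and all 4 knockout arrays, and the groups overlapped (adjusted p = 0.572 by limma).

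Of the activators and the inhibitor, 5 genes were tested. Psme3 encodes PA28γ, a nuclear activator that opens the core particle without ATP. It read 16.06, 15.81, 16.02 and 16.69 in the wild-type samples, against 15.43, 15.43, 15.57 and 15.21 in the knockout samples. All knockout arrays lay below all wild-type arrays within a narrow range (16.15 ± 0.38 against 15.41 ± 0.15, SD, n = 4 each; difference -0.74, SE 0.27, adjusted p = 0.458 by limma). The size depended on the scaling, since the difference was -0.14 after quantile normalization and in the deposited value table, -0.16 with normexp and quantile normalization and -0.25 with cyclic loess.

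The synaptic markers Syt1 and Snap25 of neurons, a cell type outside the CD45hi gate, also read lower on every knockout array than on any wild-type array in their brightest probes. Syt1 read 16.10, 15.86, 16.04 and 16.40 in the wild-type samples, against 15.57, 15.60, 15.73 and 15.22 in the knockout samples, and Snap25 differed by -0.57 (SE 0.25). After quantile normalization these differences were 0.03 for Syt1 and 0.08 for Snap25, so their sign rests on the scaling, as the size does for Psme3. The neuronal marker Slc17a7 kept its sign, at -0.94 (SE 0.27) with the main scaling and -0.88 (SE 0.27) after quantile normalization. After cyclic loess Slc17a7 was at -0.70 (SE 0.23). Other probes gave 0.23 (SE 0.49) and -0.91 (SE 0.57) for Syt1 and -0.55 (SE 1.48) for Snap25. Of the 7 neuronal markers 3 were lower at an unadjusted p under 0.05 (Slc17a7, Syt1 and Snap25), where 9.2% of all tested genes were, while Tubb3 was at 1.01 (SE 0.65). No neuronal marker passed the adjusted threshold, and the mean over the list was 11.00 to 12.09 in wild-type and 10.60 to 11.69 in knockout arrays. Some markers of other cell types, singled out after their values were seen, also read lower without overlap between the groups. They were the microglial marker Siglech (-0.54), the B cell marker Cd79a (-0.62), the dendritic cell markers Flt3 (-0.62) and Xcr1 (-0.83) and the endothelial marker Pecam1 (-1.04). Other markers of these lists went the other way. Positive differences were found for 5 of 8 microglial, 1 of 5 B cell, 1 of 7 dendritic cell and 2 of 5 endothelial markers tested. Over the marker lists of all cell types 8 of 78 tested genes were lower without overlap, against 10.7% of all tested genes. Higher without overlap was 1, the neutrophil marker S100a9 (4.79), against 0.648% of all tested genes. The part of the lower markers in the Psme3 result was not tested. The probe of Psme3 has 53 bases with 13 GT pairs. The other Psme3 probe, of another transcript, exceeded background clearly on 3 of 4 knockout arrays and on 0 of 4 wild-type arrays. It read 2.56, 2.47, 2.35 and 1.59 in the wild-type samples, against 6.73, 1.70, 7.47 and 9.46 in the knockout samples. Knockout replicate 6 thus lay within the wild-type range and the other knockout arrays above it, the opposite of the brighter probe. The knockout mean was at least 4.86-fold above the lowest signal well above background on the wild-type arrays (not tested), and at least 2.36-fold without knockout replicate 8 and at least 14.2-fold without knockout replicate 6.

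Psmf1 encodes PI31, named as a proteasome inhibitor. It read 4.26, 3.72, 4.28 and 4.76 in the wild-type samples, against 5.15, 6.18, 4.94 and 4.80 in the knockout samples. The groups did not overlap but came close, at 4.76 on wild-type replicate 4 and 4.80 on knockout replicate 8. The probe was well above background on 2 wild-type and 4 knockout arrays, so that it reached the filter through the knockout group (difference 1.01, SE 0.39, adjusted p = 0.458 by limma). With normexp and quantile normalization the difference was 0.40. Psme4, the activator PA200, differed by 2.35 (SE 1.07), whereas its other probes gave -0.74 (SE 1.05) and -1.98 (SE 1.07). The interferon-induced PA28 subunits Psme1 and Psme2 differed by -0.29 (SE 2.20) and 1.20 (SE 1.15). For both of these, wild-type replicate 4 was the lowest of the 8 arrays (3.95 and 7.07) and wild-type replicate 3 the highest (14.14 and 13.06). Psmc3ip, the recombination factor, read 5.80, 5.81, 5.96 and 5.84 against 6.35, 5.35, 5.84 and 6.54 (difference 0.17, SE 0.31, adjusted p = 0.833 by limma), and Psme3ip1 differed by -0.03 (SE 0.77).

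**Figure D4:**
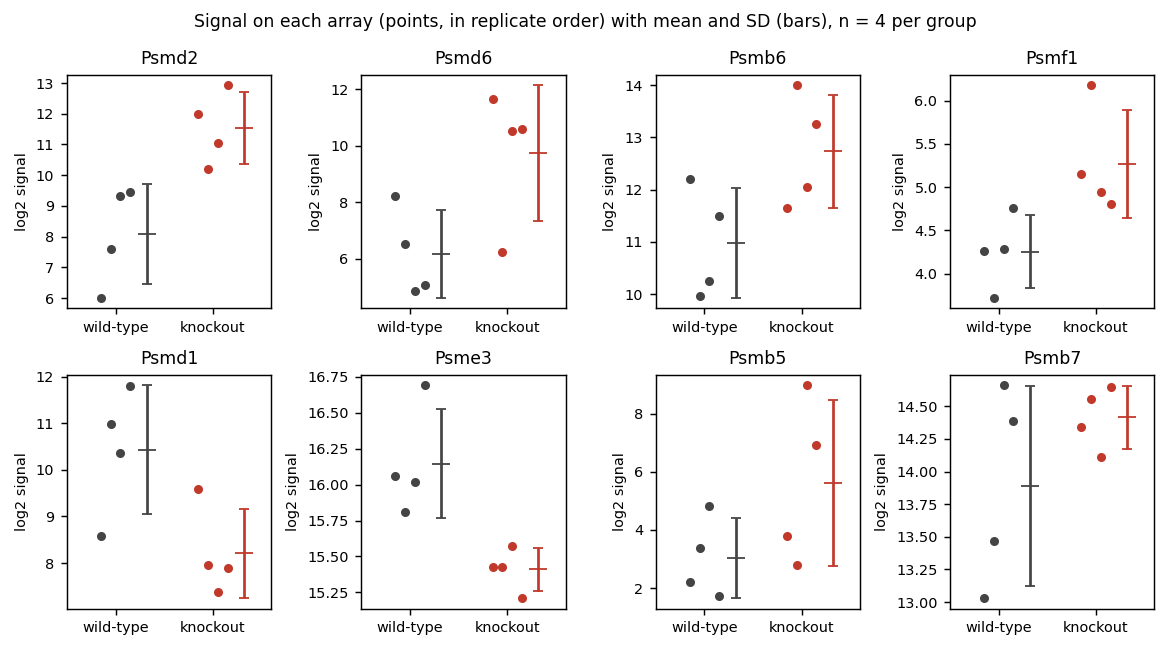
Log2 signal on each array (points, in replicate order within a group) with the group mean and SD (bars, n = 4 each) for the 6 members with an unadjusted p under 0.05 and for the proteases Psmb5 and Psmb7; each panel has its own vertical axis, which does not start at 0. The groups do not overlap for Psmd2, Psmf1 and Psme3, and the Psmb5 probe was well above background on 3 of these 8 arrays only.

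Different probes of the same gene gave a second reading for 9 genes, which had 10 other tested probes. The sign of the difference was the same as that of the brighter probe for 5 of these and opposite for 5 (1 each for Psma3, Psmc2 and Psmd1, and 2 for Psme4). Those with the same sign include Psmc1, whose probes share 32 bases and are not independent. Of the members with an unadjusted p under 0.05, Psmd1 alone had a second tested probe, and Psmd2, Psmd6 and Psmb6 were read by a single probe each.

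**Figure D5:**
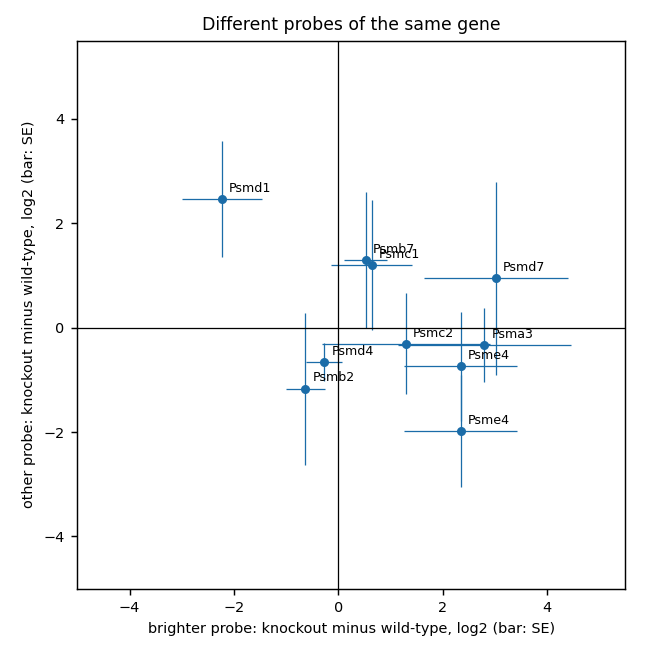
Difference between knockout and wild-type arrays for the brighter probe of a gene (horizontal axis) and for another tested probe of that gene (vertical axis), both on the log2 scale with bars of 1 SE; Psme4 appears with 2 other probes. Of the 10 points, 5 lie in the quadrants where the signs differ, with Psmd1 at -2.23 and 2.46 the farthest of them from the diagonal.

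Genes that work with the proteasome were taken from a list of 39, of which 38 were on the array and 37 were tested. The list was chosen with earlier results of these data known. No listed gene passed the adjusted threshold, 26 had positive and 11 negative differences (70.3% positive, beside 31% of all tested genes), and the median was 0.55, beside -0.33. The share of this list was counted with the main scaling only. Over all tested genes the positive share was 49.2% after cyclic loess and 37% with probes of RefSeq mRNAs alone. At an unadjusted p under 0.05, 4 were higher (Uchl5, Nsfl1c, Uba1 and Txnl1), against 1.62% of all tested genes, and 1 was lower (Fbxo7), against 9.2%. Txnl1, a thioredoxin-like protein of the regulatory particle, was well above background on 2 wild-type and 4 knockout arrays and thus reached the filter through the knockout group. Ube3a had the same counts of arrays, and Ufd1 was well above background on 2 wild-type and 3 knockout arrays, both with positive differences. Uchl5, a deubiquitinase bound to the regulatory particle, read 9.94, 3.73, 3.26 and 4.38 in the wild-type samples, against 12.20, 10.57, 13.03 and 13.83 in the knockout samples. Every knockout array lay above every wild-type array (difference 7.08, SE 1.52, unadjusted p = 0.00184, adjusted p = 0.458 by limma). A second Uchl5 probe gave 3.69 (SE 2.60).

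Nsfl1c, the p47 cofactor of the VCP segregase, differed by 3.35 (SE 0.98) and Uba1, the main ubiquitin-activating enzyme, by 3.33 (SE 1.01). Their groups overlapped at the edges, since Nsfl1c read 7.17 on wild-type replicate 3 and Uba1 read 9.84 on wild-type replicate 1. All 4 genes of the VCP segregase list had positive differences, of 0.09 to 3.35. Of those with negative differences, Fbxo7, which binds PI31, was at -2.05 (SE 0.64) and the core assembly chaperone Psmg2 at -0.81 (SE 0.35), each with an adjusted p of 0.458 (limma). A second probe gave -1.76 (SE 1.92) for Psmg2. Nfe2l1, the transcription factor that raises proteasome genes when proteasomes fail, was singled out after its values were seen. It read 7.32, 7.63, 11.62 and 6.18 in the wild-type samples, against 11.31, 11.76, 6.88 and 6.66 in the knockout samples. The groups overlapped (difference 0.97, SE 1.62, adjusted p = 0.812 by limma). The other genes of its list, Ddi2 and Ngly1, differed by 1.43 (SE 0.86) and 1.94 (SE 1.53). A link between these genes and the signals of the members was not tested.

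Promoter windows were read from RefSeq (GRCm38.p6) for 36 of the 43 genes, each with 250 bases before and 50 after the start, to show what the members share in sequence. The motifs were searched on both strands. TGACNNNGC, the core of the antioxidant response element that Nfe2l1 and related factors bind, was found in 6 of 36 members (Psmb5, Psmb6, Psmc6, Psmd12, Psmd9 and Psme4), or 16.7%, beside 14% of 27025 genes with a window. The looser TGANNNNGC, which includes it, was found in 58.3% of members and 45% of genes. CCGGAAG, the core bound by ETS family factors, was found in 14 members, or 38.9%, beside 9.93% of genes. CCAAT was found in 41.7% and 41.1%, and TATAAA in 8.33% and 15.7%. A match shows only that these letters are in the window.

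The windows of Psmb5, Psmb6 and Psmd2 are shown because these are the protease genes with the antioxidant element core and the member with the smallest p. Capitals mark TGACNNNGC in Psmb5 and Psmb6, 47 and 9 bases before the start. In Psmd2 they mark CCGGAAG as read on the other strand (CTTCCGG). Psmb5 lies at chr14:54617946-54618245 on the minus strand, Psmb6 at chr11:70525107-70525406 on the plus strand and Psmd2 at chr16:20651402-20651701 on the plus strand, each written 5′ to 3′ along the gene.
Psmb5: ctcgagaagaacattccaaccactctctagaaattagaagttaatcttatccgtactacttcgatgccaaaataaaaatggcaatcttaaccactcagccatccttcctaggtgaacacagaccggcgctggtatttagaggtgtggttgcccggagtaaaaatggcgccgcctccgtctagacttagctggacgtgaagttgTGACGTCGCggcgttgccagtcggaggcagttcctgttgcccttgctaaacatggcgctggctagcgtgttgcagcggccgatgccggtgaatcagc
Psmb6: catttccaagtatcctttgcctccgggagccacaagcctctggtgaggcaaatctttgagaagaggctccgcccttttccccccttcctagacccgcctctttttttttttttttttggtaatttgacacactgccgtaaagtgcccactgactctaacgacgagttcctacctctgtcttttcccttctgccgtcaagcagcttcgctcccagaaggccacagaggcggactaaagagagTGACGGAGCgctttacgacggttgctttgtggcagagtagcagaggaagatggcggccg
Psmd2: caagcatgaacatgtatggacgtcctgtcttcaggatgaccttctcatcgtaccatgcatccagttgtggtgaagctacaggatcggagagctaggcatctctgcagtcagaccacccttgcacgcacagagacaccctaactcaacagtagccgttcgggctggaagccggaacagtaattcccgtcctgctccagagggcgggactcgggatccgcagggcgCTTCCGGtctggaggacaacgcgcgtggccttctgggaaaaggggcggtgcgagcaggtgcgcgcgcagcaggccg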

How the data were processed

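RNA of 8 samples was hybridised to 8 single-colour arrays of an Agilent custom design (build mm9), all on 1 slide in 1 scan, per the file headers. Per the labels' protocols, a low-input kit with random primers made the cyanine 3 cRNA. The deposited scanner files give intensity per spot, subtracted for background and detrended within each array by Agilent Feature Extraction 11.5.1.1, with surrogate values for dim spots, per the file headers. A second kind of file deposited by the authors holds linear intensity values whose quantiles are identical on all arrays. They were used as an alternative, and their columns correlated at 0.9893 or more with their own arrays and at 0.8015 or less with others. The deposited flags for background and outliers carry no scale.

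Spots of a probe were averaged as a geometric mean without outlier spots. Probes were named through RefSeq accessions (44 member probes) or symbols (15) with a table of assembly GRCm38.p6, used for names only. Log2 intensity was scaled to the 75th percentile of each array. The brightest probe stood for a gene and was tested where well above background on 4 of 8 arrays. Differences were fitted with limma 3.58.1 (lmFit, eBayes) in R 4.3.3, two-sided, with Benjamini-Hochberg adjustment and a threshold of 0.05. The code of the fit was checked on simulated data with independent normal values. Such values lack the outlying arrays seen here, so the check does not speak for error rates in these data. Precision is limited by the number of arrays. Files were read with the data.table package (version 1.17.8), pandas 2.3.3 and numpy 2.4.6 under Python 3.11.15. Plots were made with matplotlib 3.10.9.

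The members and lists were chosen with earlier results of these data known. Every array was given for the proteases, for the 4 members with the smallest p in each direction, for the member with the smallest p of each role, and for the outside genes of the 3 smallest p in each direction or, for some, their difference, except 1 that is not reported here. Alternatives were other scalings, background correction, filters, probe choices, the slide row and leaving out arrays.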

Additional observations from a re-analysis of the deposited data

Results flagged for a closer look

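An array lay far from the other 3 of its group, by Dixon's criterion at the 95% level, in 10 of 84 groups of 4 arrays (11.9%). Chance gives about 1 in 20 for normally distributed values, but over all tested genes the share was 9.89%, and over genes read by RefSeq mRNA probes 10.5%, so the members' share lies near the background. In 7 of these the array was the lowest of its group and in 3 the highest. Wild-type replicate 3 accounted for 3, all on the high side: Psma5 read 10.39 where the others read 3.13 to 3.74, Psmc4 read 13.26 where the others read 4.41 to 5.44, and Psmd5 read 8.93 where the others read 5.60 to 6.12.

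Knockout replicate 5 accounted for another 3, all on the low side. Psmd11 read 1.93 there and 12.55 to 12.65 on the other knockout arrays. Psmb1 read 5.59 beside 12.63 to 13.39, and Psma4 read 10.83 beside 13.12 to 13.52. Knockout replicate 6 was low for Psma1, at 4.11 beside 11.69 to 13.02, and for Psma3, at 11.98 beside 13.23 to 13.32. Psma1 was also low on wild-type replicate 4, at 8.16 beside 12.15 to 12.65, and Psma7 was low on wild-type replicate 2, at 11.45 beside 13.01 to 13.21.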

How the results depend on the processing

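The number of members past the adjusted threshold was 0 in all settings tested, and the lowest adjusted p of a member was 0.416, shared by 5 members (Psmb6, Psmd1, Psmd2, Psmd6 and Psme3) with the filter at all 8 arrays. The count of members higher at an unadjusted p under 0.05 was 4, where 1.62% of all tested genes were. It became 7 after cyclic loess (2.94% of all genes) and was 2 to 7 when single arrays were left out (1.43% to 1.97%). The count of lower members was 2, where 9.2% of all tested genes were lower. It became 1 after quantile normalization (4.44% of all genes), scaling to the array median (4.21%), cyclic loess (1.89%) and normexp with quantile normalization (4.82%). It was also 1 in the deposited value table (4.36%), in the mean over the probes of a gene (8.6%) and with RefSeq mRNA probes alone (6.13%). Leaving out single arrays gave 1 to 2 (4.73% to 9.21%), and leaving out knockout replicates 7 and 8 together gave 0 (2.06%). The median member difference stayed positive in every setting run, from 0.10 to 1.09, and was 0.29 to 0.93 when single arrays were left out.

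Of 51 genes given with a difference, 28 kept their sign in the 19 settings other than single slide rows and 23 changed it in at least 1, which came to 55 of 963 values. Within a slide row, with 2 arrays a group, 9 genes changed sign in row 1 and 15 in row 2. Of the 28 genes, 7 did so (Psma4, Psma6, Psmc6, Psmd3, Psmd5, Psmd9 and Psme2), which leaves 21. The cause of these changes was not tested. Without knockout replicates 7 and 8 together the differences with changed sign were -0.35 (Psma2), -0.52 (Psmb1), 0.89 (Psmb3), -0.79 (Psmb4), -0.09 (Psmc3), -0.02 (Psmc1), 0.57 (Psmc5), -0.43 (Psmd14), 0.14 (Psmd13), -1.68 (Psmd11), -2.27 (Psmd8), -0.00 (Psmc3ip), -0.45 (Psmb8), -1.09 (Psmb9) and -0.02 (Psmb10). After cyclic loess they were 0.15 (Psma8), 0.09 (Psma7), 0.10 (Psmd4) and 0.23 (Psme3ip1), and with normexp and quantile normalization 0.06 (Psmd4) and 0.04 (Psme3ip1). Psme3ip1 was also at 0.04 after quantile normalization and in the value table and at 0.12 after scaling to the array median. In the mean over the probes of a gene Psmd1 was at 0.12 and Psme4 at -0.12, and with RefSeq mRNA probes alone Psmd1 was at 2.46. Leaving out single arrays gave -0.00 to 1.10 for Psma2, -2.12 to 0.99 for Psma1, -0.66 to 0.09 for Psma8, -0.64 to 0.25 for Psma7, -2.46 to 0.53 for Psmb3 and -0.46 to 1.63 for Psmb4. It gave -1.78 to 0.35 for Psmc5, -0.42 to 0.04 for Psmd4, -0.63 to 1.46 for Psmd14, -0.63 to 0.29 for Psmd13, -0.93 to 3.66 for Psmd11, -1.66 to 1.28 for Psmd8 and -2.50 to 0.90 for Psme1. It gave -0.01 to 0.39 for Psmc3ip, -0.54 to 0.47 for Psme3ip1, -0.04 to 0.79 for Psmb8 and -0.68 to 1.09 for Psmb9.

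No paired analysis was possible because the labels number the wild-type samples 1 to 4 and the knockout samples 5 to 8, so that no number is shared. The probes of Psma5, Psma8, Psmb5, Psmd10, Psmd11 and Psmf1 were not well above background on some arrays. Whether they carry surrogate signals there was not checked, and the size of their differences is uncertain.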
